A study of Homo sapiens with 4 samples.

Results

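The 10 entries described here belong to a table of mature miRNAs and match, overlap or resemble fragments of abundant structural RNAs. They were chosen by name, 10 of the 2039 miRNAs in the table. By RNA class they are hsa-miR-1246 and hsa-miR-1290 (U2 snRNA), hsa-miR-1291 and hsa-miR-664a-3p (H/ACA snoRNA), hsa-miR-1260a, hsa-miR-1260b and hsa-miR-4454 (tRNA), and hsa-miR-3648, hsa-miR-3687 and hsa-miR-4516 (rRNA or its spacer, with miR-4516 only suspected). The prefix hsa, for human, is left out from here on. Small RNA was counted in the human gastric epithelial line HFE-145, in 2 samples that express YAP5SA and 2 samples with the vector. YAP5SA is a form of YAP, the co-activator held back by Hippo signalling, in which the serines that Hippo kinases phosphorylate are mutated. No other treatment, time or allele is given in the labels. The samples are termed duplicates, and whether each was a culture of its own is left unsaid. The p-values here therefore measure the spread between these samples alone, and it may be technical.

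U2 snRNA is the part of the spliceosome that pairs with the intron branch point. H/ACA snoRNAs guide the conversion of uridine to pseudouridine in other RNAs. Mature tRNAs end in CCA, and rRNA is cut from a long precursor whose spacers are then degraded. A small RNA library made from total RNA can hold fragments of all of these, and a read that matches both such a fragment and a miRNA entry can be counted under the miRNA's name. miR-1246 is known as an entry that may come from U2, while miR-664a and miR-1291 are known as miRNAs cut from snoRNAs. The table holds no read lengths or ends, so fragments and cut miRNAs cannot be told apart in it.

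The mature sequences of the 10 entries, from the deposited table, are shown because the matches to structural RNA rest on them. Capitals mark the seed, bases 2 to 8, and sequences run 5′ to 3′.
miR-1246: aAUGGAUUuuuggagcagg
miR-1290: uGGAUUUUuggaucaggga
miR-1291: uGGCCCUGacugaagaccagcagu
miR-664a-3p: uAUUCAUUuauccccagccuaca
miR-1260a: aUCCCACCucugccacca
miR-1260b: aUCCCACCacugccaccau
miR-4454: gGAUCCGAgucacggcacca
miR-3648: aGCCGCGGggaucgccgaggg
miR-3687: cCCGGACAggcguucgugcgacgu
miR-4516: gGGAGAAGggucggggc

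Only miR-1260a and miR-1260b shared a seed among the 10. In the rest of the table, miR-4442 had the seed of miR-3687, and miR-4434 and miR-5703 had that of miR-4516. RefSeq's table on GRCh38.p14 held 9 of the 10 by name, each with the same sequence. Lengths ran from 17 to 24 bases against a median of 22 over the table, and the share of G and C bases ran from 39.1% in miR-664a-3p to 80.95% in miR-3648 against a median of 50%.

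The names were checked against 5722 structural RNA transcripts of GENCODE 29, read on the sense strand. An exact match was found for 3 of the 10 entries, against 15 of 2039 (0.736%) over the whole table. On GRCh38, miR-1246 is annotated at chr2:176601024-176601042 (minus strand), in no annotated gene, and miR-1290 at chr1:18897078-18897096 (minus strand), within ALDH4A1. miR-1246 matched 19 snRNA transcripts of the U2 family and its pseudogenes, among them RNU2-1 from base 94 to 112 of 191. miR-1290 matched none exactly, and 23 transcripts with 1 mismatch, which in RNU2-1 was U13G, counted from the 5′ end of the miRNA with its base first. The snoRNA entries had 1 exact match each: miR-1291 lay at bases 2 to 25 of the 137 of SNORA2C, also called SNORA34, and miR-664a-3p at bases 106 to 128 of the 131 of SNORA36B. The stretches that hold them, written in RNA letters with capitals for the bases under the miRNA entry, are these.
RNU2-1 under miR-1246: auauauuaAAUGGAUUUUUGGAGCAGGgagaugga
RNU2-1 under miR-1290: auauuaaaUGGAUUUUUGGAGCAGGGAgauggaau
SNORA2C under miR-1291: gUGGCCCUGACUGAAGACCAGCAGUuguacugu
SNORA36B under miR-664a-3p: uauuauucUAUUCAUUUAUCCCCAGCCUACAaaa

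The windows for the U2 pair overlap almost fully. Set 2 bases apart, miR-1246 and miR-1290 agreed at 16 of 17 bases, with G15U as the difference (position and first base from miR-1246). miR-1260a and miR-1260b agreed at 17 of 18, with U9A as the difference (position and first base from miR-1260a). The authors' rule for reads that fit both members of such a pair was not given in the sources used here, so the split within each pair is uncertain.

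The other classes could be checked only in part, since tRNA and 45S rRNA sequences were not used here. miR-1260a and miR-4454 end in CCA, the ending of mature tRNAs, as do 41 of 2039 mature sequences (2.01%), and miR-1260b ends in CCAU. miR-1260a (chr14:77266231-77266248, plus strand) lay opposite NGB, miR-1260b (chr11:96341447-96341465, plus strand) opposite MAML2, and miR-4454 (chr4:163093607-163093626, minus strand) in no annotated gene. None of the 3 precursors overlapped any of the 465 tRNA genes that RefSeq lists. One copy of the miR-3648 precursor (GRCh38, chr21:8208473-8208652) and 1 of miR-3687 (chr21:8208844-8208904) lay inside the rRNA precursor gene RNA45SN2 (chr21:8205988-8219302), before the 18S part, which starts at 8209631. This part of the precursor is the spacer removed during rRNA maturation. In GENCODE 29 the same stretch carries the lincRNA FP671120.1. A second copy of each precursor on chromosome 21 overlapped no annotated gene. miR-4516 lay opposite PKD1 on chromosome 16 (chr16:2133119-2133204), and its best match among the structural transcripts had 4 mismatches over 17 bases, so no transcript searched here places it in rRNA.

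Counts of these entries were low. Total counts per library were 136903 and 191954 in YAP5SA replicates 1 and 2, and 217235 and 195283 in vector replicates 1 and 2. The 10 entries together took 0.0855% and 0.193% of the YAP5SA counts, and 0.0368% and 0.0415% of the vector counts. Apart from 252 counts of miR-4516 in YAP5SA replicate 2, no entry passed 28 counts in any library. Levels are given as CPM, which puts each library's counts on a common total after scaling by TMM (a trimmed mean of ratios between libraries), and in which 1 count is worth between 5.23 and 6.57 CPM. Epithelial marker miRNAs, 7 of 7 of them in the table, summed to 12076 and 15114 CPM in YAP5SA libraries against 29164 and 25669 CPM in vector libraries. Of the 6 lists for other cell types, the highest, blood, summed to 1392 to 2478 CPM, and each of the others to at most 216 CPM; their part in the results below was not tested.

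**Figure D1:**
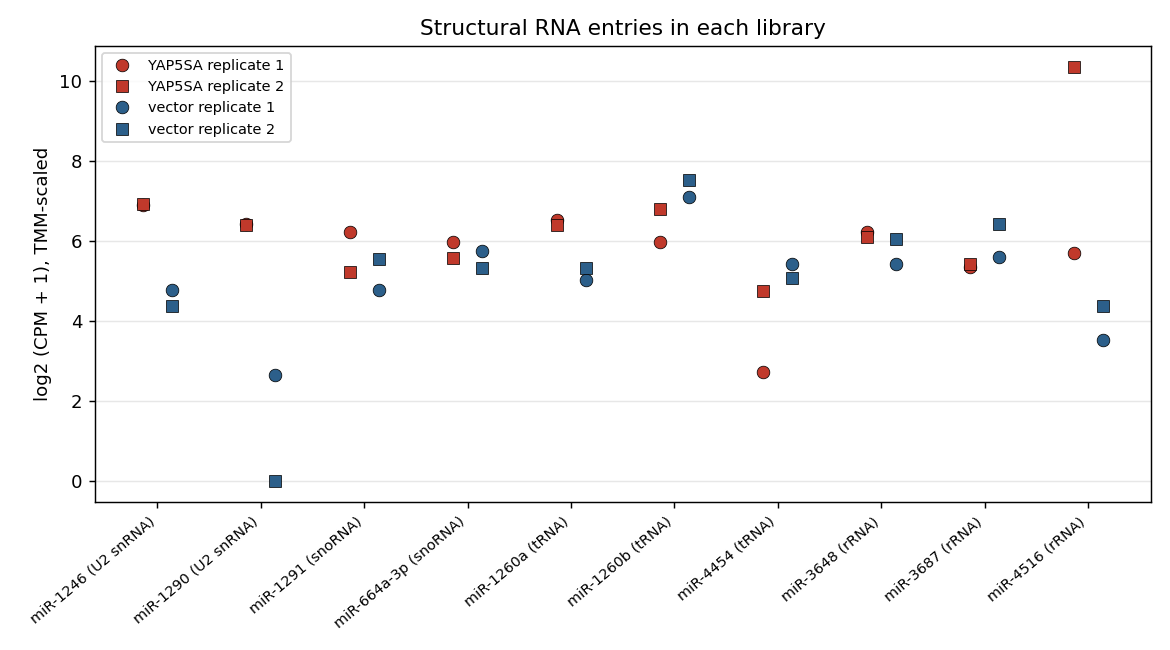
Level of each entry in each library as log2 of TMM-scaled CPM plus 1, with YAP5SA libraries in red left of vector libraries in blue; circles are replicate 1 and squares replicate 2. Both YAP5SA points lie well above both vector points for miR-1246 and miR-1290, while for miR-4516 YAP5SA replicate 2 stands far above the other 3 libraries.

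The comparison of YAP5SA with vector asks which small RNAs differ in gastric epithelial cells with active YAP. edgeR called both U2 entries higher, but both passed its filter through YAP5SA libraries alone, and with no filter miR-1290 was called (adjusted p = 0.029) and miR-1246 was not (0.13). Of the tRNA entries, miR-1260a lay above and miR-1260b below its vector levels, and neither passed the test. miR-4454, below its vector levels, and both snoRNA entries had too few counts for the filter. With no filter edgeR did not call them. Among the rRNA entries only miR-4516 was called, with nearly all of its counts in 1 library. Of the 10 entries, 6 had enough counts for edgeR's default filter, and 3 were called higher and 0 lower by its quasi-likelihood test at a Benjamini-Hochberg adjusted p under 0.05. Over all 602 miRNAs tested, 92 were called (15.3%), 71 higher (11.8%) and 21 lower (3.49%). Of the 6, all but miR-1260b passed the filter through YAP5SA libraries alone, so the 3 calls among them carry that choice and are no evidence about the group of 10. In a fit with no filter, edgeR called 2 of the 10 entries, both higher, against 2.36% of all 2034 miRNAs with a count (1.67% higher). That fit computed its own TMM factors, so it differs in scaling as well as in the filter. DESeq2 called 0 of the 6 entries to which it gave an adjusted p, against 7.65% of 536 miRNAs. Those 6 are not the 6 that edgeR tested, since they hold miR-3687 and lack miR-1290. Of all 10 entries, DESeq2 put 2 at an unadjusted p under 0.05. In the fit with no filter, the median log2 fold change was 0.054 over the 10 entries and 0.28 over all 2034. Both YAP5SA libraries lay above both vector libraries for 5 of the 10 entries (34.4% of the 2034) and below them for 3 (11.8%). With library totals in place of TMM, miR-1291 and miR-664a-3p also lay above, and miR-4454 and miR-3687 overlapped. The shares over all miRNAs under library totals are not given here. The placings of miR-1291, miR-664a-3p, miR-4454 and miR-3687 therefore depended on the scaling. Under both, miR-1246, miR-1290, miR-1260a, miR-3648 and miR-4516 lay above and miR-1260b below. Without the shares under library totals, this is no evidence about the 10 entries as a set. With library totals as the only scaling, 147 miRNAs were called higher and 12 lower, and the tested miRNAs had a median log2 fold change of 0.61 in place of 0.11. With scaling from abundant miRNAs the calls were 163 and 4 and that median 0.83; DESeq2 called 17 higher and 24 lower and the fit with no filter 34 and 14.

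**Figure D2:**
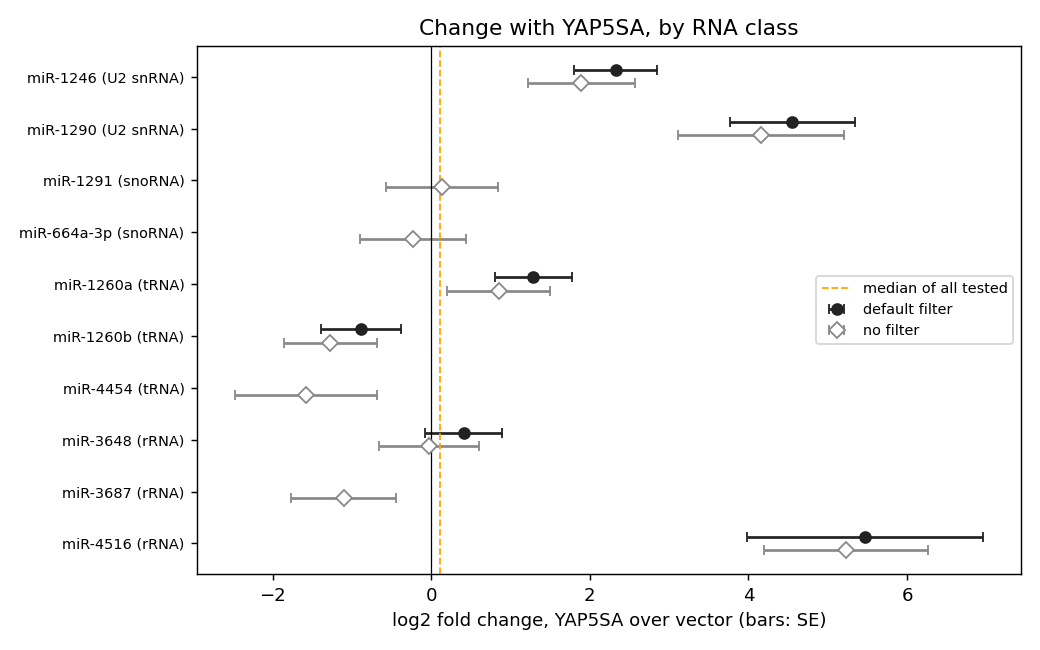
Log2 fold change of YAP5SA over vector for each entry, with bars for the SE; filled circles are from the fit with the default filter and open diamonds from the fit with none, and the dashed line marks the median of all miRNAs tested. miR-1290, miR-1246 and miR-4516 lie far to the right, while the diamonds of the other 7 lie between -1.58 and 0.85.

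The U2 entries had replicates close together and groups well apart. miR-1246 had 21 and 23 counts in YAP5SA libraries, against 5 and 3 in vector libraries, which is 119 and 120 CPM against 26.4 and 19.7 CPM. Every YAP5SA value was above every vector value. edgeR put its log2 fold change at 2.33 ± 0.52 (SE), with an adjusted p of 0.030. The ratio of pooled counts, scaled by library size, was 5.11 (exact binomial 95% interval 2.38 to 12.6, counting error only).

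miR-1290 had 15 and 16 counts in YAP5SA libraries, against 1 and 0 in vector libraries, which is 85.2 and 83.7 CPM against 5.28 and 0 CPM. A count of 0 in vector replicate 2 allows up to 19.7 CPM, the worth of 3 counts there. With 1 count over both vector libraries the ratio of pooled counts was 28.8 (4.80 to 1175), and edgeR called it (adjusted p = 0.023). Summed, the U2 entries reached 36 and 39 counts in YAP5SA libraries, against 6 and 3 in vector libraries, a pooled ratio of 7.75 (3.87 to 17.6). That interval covers counting error only. The exact permutation p of the summed CPM was 0.333, the smallest that this number of samples can give.

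Both U2 entries lay higher in YAP5SA libraries under all 3 other scalings, with log2 fold changes of 2.41 to 3.06 for miR-1246 and 4.63 to 5.22 for miR-1290, each called by edgeR; with 1 count in the vector group, the size for miR-1290 depends on the prior count. The calls were less firm than the directions. For miR-1246 the call was lost with no filter (adjusted p = 0.13, edgeR), with DESeq2 (0.25), with limma on the authors' values (0.39) and without any 1 of the 4 libraries (0.052 to 0.46, edgeR), where the log2 fold change was 1.76 to 2.25. For miR-1290 it was lost without vector replicate 1 (0.11) or 2 (0.21, edgeR) and with limma on the authors' values (0.37), and DESeq2 gave no adjusted p. The authors' deposited table gave a fold change of 2.89 with p = 0.047 for miR-1246, and of 6.69 with p = 0.023 for miR-1290. Of the authors' p-values, 190 of 2039 were under 0.05, and 0 were after a Benjamini-Hochberg adjustment.

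Within a library, miR-1246 took 58.3% and 59.0% of the pair's 36 and 39 counts in YAP5SA libraries, against 83.3% and 100% of 6 and 3 in vector libraries. The vector intervals, 35.9% to 99.6% and 29.2% to 100% (exact binomial, 95%), hold the YAP5SA shares, so a change in the balance of the pair was not detectable at this depth.

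Neither snoRNA entry had enough counts for the default filter. miR-1291, from the 5′ end of SNORA2C within KANSL2, had 13 and 7 counts in YAP5SA libraries, against 5 and 7 in vector libraries. miR-664a-3p, from near the 3′ end of SNORA36B within RAB3GAP2, had 11 and 9 counts in YAP5SA libraries, against 10 and 6 in vector libraries. Both entries overlapped between the groups in CPM. Pooled ratios were 1.55 (0.72 to 3.48) and 1.16 (0.57 to 2.40), with intervals that hold 1. With no filter, edgeR gave log2 fold changes of 0.14 ± 0.71 (adjusted p = 0.94) for miR-1291 and -0.23 ± 0.66 (adjusted p = 0.90) for miR-664a-3p, and both signs changed with the scaling. The fit with no filter has its own TMM factors, so these values are not on the scaling of the pooled ratios. Summed, the pair stood at 136 and 83.7 CPM in YAP5SA libraries, against 79.3 and 85.5 CPM in vector libraries.

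The tRNA entries were the most counted class in vector cells, and miR-1260b was the most counted entry there. miR-1260b had 11 and 21 counts in YAP5SA libraries, against 26 and 28 in vector libraries, which is 62.5 and 110 CPM against 137 and 184 CPM. The groups did not overlap, but the log2 fold change of -0.88 ± 0.51 (SE) did not pass (adjusted p = 0.28, edgeR). It was below 0 under every scaling, from -0.18 with scaling from abundant miRNAs to -0.88, and without YAP5SA replicate 2 it was -1.90 (adjusted p = 0.0085, edgeR). That fit has a lone YAP5SA sample, which is assumed to vary like the vector pair, and it adds no support to a lower level.

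miR-1260a, 1 base different within its length, had 16 and 16 counts in YAP5SA libraries, against 6 and 6 in vector libraries, which is 90.9 and 83.7 CPM against 31.7 and 39.4 CPM. edgeR gave it a log2 fold change of 1.29 ± 0.49 (SE) at an adjusted p of 0.11, above 0 under every scaling. edgeR called it higher with library totals (1.79, adjusted p = 0.037) and with scaling from abundant miRNAs (2.02, adjusted p = 0.021). Those scalings also raised the median of all tested miRNAs from 0.11 to 0.61 and 0.83. miR-1260a passed the filter through YAP5SA libraries alone. edgeR did not call it with upper quartile scaling (adjusted p = 0.092), no filter (0.57) or the replicate block (0.14). DESeq2 (0.70) and limma on the authors' values (0.64) did not call it either. With 1 library left out its log2 fold change was 0.79 to 1.14. miR-4454 had 1 and 5 counts in YAP5SA libraries, against 8 and 5 in vector libraries. That is 5.68 and 26.2 CPM against 42.3 and 32.9 CPM, with a pooled ratio of 0.43 (0.13 to 1.21). With no filter edgeR gave it -1.58 ± 0.90 on the log2 scale (SE) at an adjusted p of 0.40, and without YAP5SA replicate 2 it was -3.28 (adjusted p = 0.029, edgeR). That fit also has a lone YAP5SA sample, holding 1 count and assumed to vary like the vector pair, and it adds no support either.

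The balance between miR-1260a and miR-1260b needs no scaling between libraries. It was looked at after the values were seen. miR-1260a took 59.3% of the pair's 27 counts in YAP5SA replicate 1 (exact binomial 95% interval 38.8 to 77.6) and 43.2% of 37 in replicate 2 (27.1 to 60.5). In vector replicates 1 and 2 it took 18.8% of 32 (7.21 to 36.4) and 17.6% of 34 (6.76 to 34.5). Both YAP5SA shares lay above both vector shares, and the interval of YAP5SA replicate 1 lay clear of both vector intervals while that of replicate 2 did not. A share within a library does not show which of the pair moved, and 2 samples against 2 cannot give an exact permutation p below 0.333. Summed over the 3 tRNA entries, the groups overlapped at 159 and 220 CPM in YAP5SA libraries, against 211 and 256 CPM in vector libraries.

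**Figure D3:**
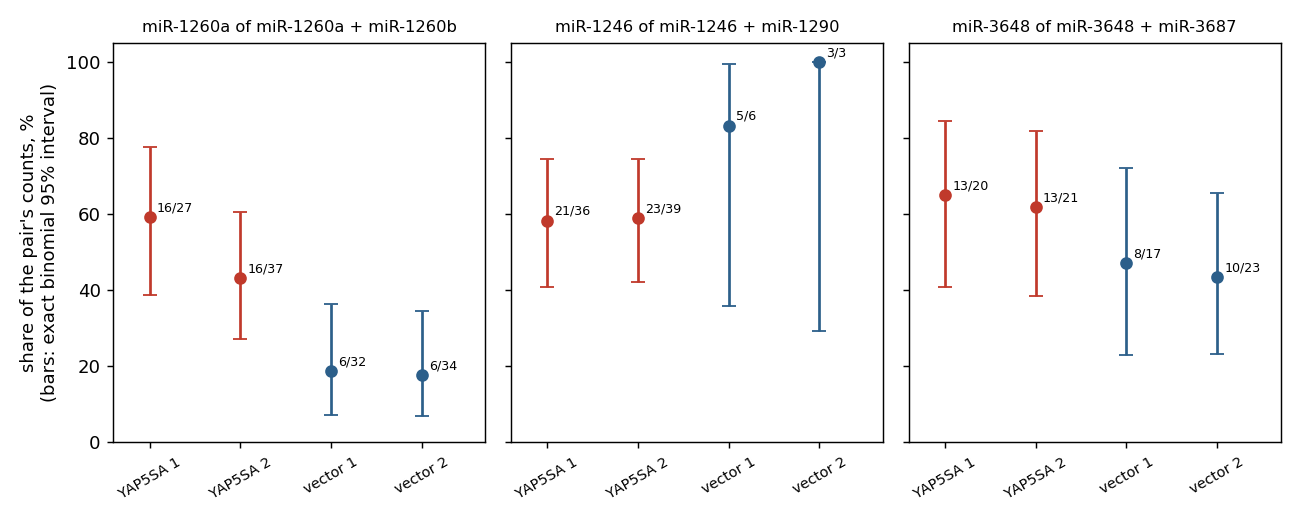
Share of the first entry in the summed counts of a pair, in percent, for each library, with bars for the exact binomial 95% interval and the counts beside each point; YAP5SA libraries are red and vector libraries blue. The share of miR-1260a is higher in both YAP5SA libraries, but only the interval of YAP5SA replicate 1 lies clear of both vector intervals. The intervals of the other pairs overlap.

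The spacer entries of rRNA showed no call. miR-3648 had 13 and 13 counts in YAP5SA libraries, against 8 and 10 in vector libraries. edgeR gave it a log2 fold change of 0.41 ± 0.49 (SE) at an adjusted p of 0.62, and it was -0.032 with no filter. miR-3687 had 7 and 8 counts in YAP5SA libraries, against 9 and 13 in vector libraries, with a pooled ratio of 0.63 (0.31 to 1.28). With no filter edgeR gave it -1.10 ± 0.66 on the log2 scale (SE) at an adjusted p of 0.44, and it was 0.040 with scaling from abundant miRNAs. The precursor copies of these entries lie close together in the same rRNA precursor gene. miR-3648 took 65.0% and 61.9% of the pair's counts in YAP5SA libraries, against 47.1% and 43.5% in vector libraries, with exact binomial 95% intervals that all overlap. Summed without miR-4516, the rRNA entries stood at 114 and 110 CPM in YAP5SA libraries, against 89.8 and 151 CPM in vector libraries, and the vector values lay on both sides of the others.

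miR-4516, named as suspected rRNA, was counted mainly in 1 library. It had 9 and 252 counts in YAP5SA libraries, against 2 and 3 in vector libraries, which is 51.1 and 1319 CPM against 10.6 and 19.7 CPM. edgeR called it higher (adjusted p = 0.048), by 5.47 ± 1.49 on the log2 scale (SE), and the authors' deposited table gave a fold change of 27.2 with p = 0.41. Without YAP5SA replicate 2 it had too few counts to be tested, and with no filter edgeR then gave it 1.03 ± 0.86 on the log2 scale (SE) at an adjusted p of 0.49, a fit chosen after the values were seen. The call was also lost without vector replicate 1 (adjusted p = 0.061, edgeR), with DESeq2 (0.078) and with limma on the authors' values (0.57). With its counts the rRNA entries summed to 165 and 1429 CPM in YAP5SA libraries, against 100 and 171 CPM in vector libraries.

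For all entries but miR-4516, replicates could not be told apart at this depth. Between YAP5SA replicates, the interval of the ratio of scaled counts held 1 for 9 of 10 entries, and between vector replicates for 10 of 10. The exception, miR-4516 in YAP5SA, had a ratio of 25.8 (exact binomial 95% interval 13.4 to 57.1) of replicate 2 over replicate 1. Its difference between those replicates, 4.41 on the log2 CPM scale, ranked 1 of the 602 miRNAs tested. Under TMM, the median absolute difference over the 10 entries was 0.22 in YAP5SA libraries. It was 0.52 over all miRNAs tested and 0.50 over the 317 tested with a mean count under 20. In vector libraries it was 0.45, against 0.39 and 0.47. The intervals are wide at these counts, and one that holds 1 does not show that the replicates were alike. The small differences between YAP5SA replicates also rest on the scaling. That of miR-1246 was 0.012 under TMM and -0.38 with library totals. For miR-1260a the values were -0.10 and -0.49, and for miR-3648 -0.10 and -0.48. The difference shrank for miR-1260b, from 0.72 to 0.35, and by less of its size for miR-4454 and miR-4516. The medians were taken under TMM alone, so 0.22 does not show that these entries were better replicated than the table.

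**Figure D4:**
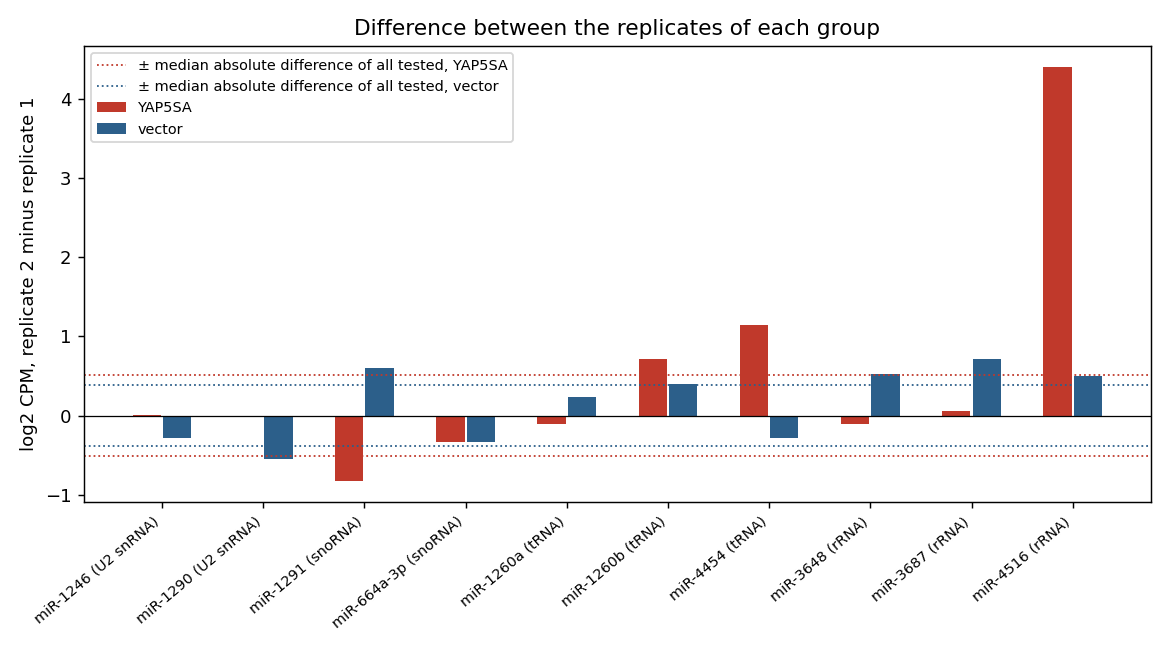
Difference in log2 CPM (prior count of 2) between replicate 2 and replicate 1 for each entry, with YAP5SA in red and vector in blue; dotted lines mark the median absolute difference over all miRNAs tested in each group. The bar of miR-4516 in YAP5SA reaches 4.41, and those of miR-1246 and miR-1290 in YAP5SA are near 0.

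The median difference between the YAP5SA replicates rose with the share of G and C, mainly above 75%. Among 25 tested miRNAs with over 75% G and C, which include miR-4516 (76.5%) and miR-3648 (80.95%), the median log2 difference of replicate 2 over replicate 1 was 0.69 in YAP5SA libraries, against 0.16 in vector libraries. Among the 116 with at most 40% the medians were -0.21 and -0.12, and the 367 between 40% and 60% lay at -0.0023 and 0.028. The 94 between 60% and 75% lay at 0.039 and 0.089. miR-3648 did not follow its range, at -0.10 in YAP5SA. The part of base composition in the result for miR-4516 was not tested.

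**Figure D5:**
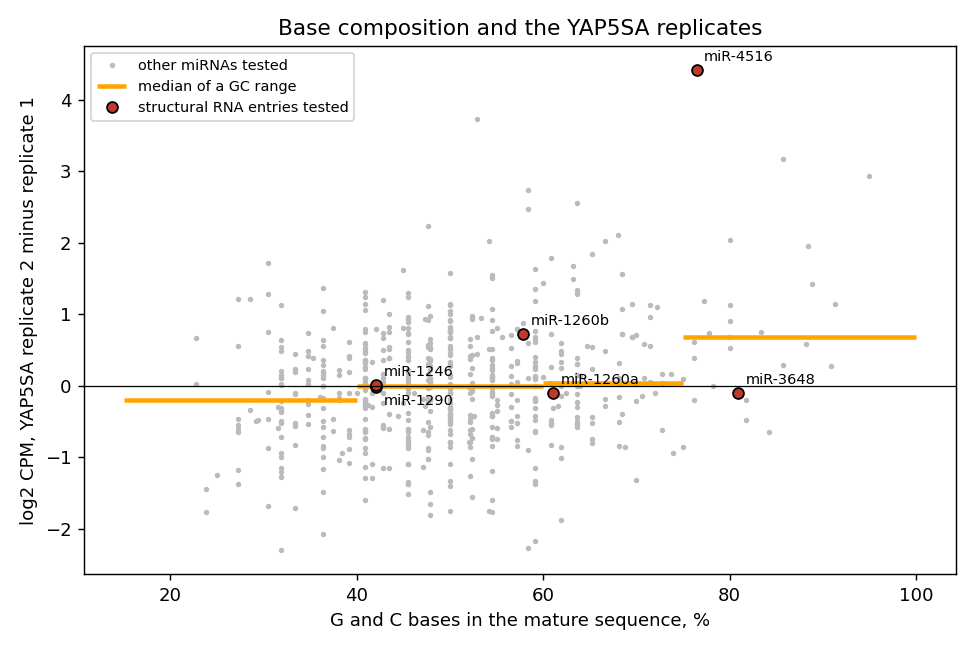
Difference in log2 CPM between YAP5SA replicate 2 and replicate 1 (vertical) against the share of G and C bases in the mature sequence in percent (horizontal), for all miRNAs tested, with the 6 tested entries named and orange lines for the median of each GC range. The median is 0.69 above 75% G and C, and miR-4516 lies far above it.

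miR-4516 had the highest mean level of the 10, through YAP5SA replicate 2 alone: it stood at 1319 CPM there and at 10.6 to 51.1 CPM in the other 3 libraries. The 3 other tested miRNAs closest to its pattern, by Euclidean distance between centred log2 CPM over the 4 libraries, were miR-4663 (distance 2.16), miR-4795-3p (2.34) and miR-4795-5p (2.45). miR-4663 had 27 and 207 counts in YAP5SA libraries, against 12 and 29 in vector libraries. Its difference of 2.30 ± 0.91 on the log2 scale (SE) did not pass (adjusted p = 0.12, edgeR). miR-4795-3p had 20 and 50 counts in YAP5SA libraries, against 1 and 1 in vector libraries, and miR-4795-5p had 14 and 38 against 2 and 2. edgeR called both higher, by 4.85 ± 0.81 (SE, adjusted p = 0.023) and 3.50 ± 0.75 (SE, adjusted p = 0.030) on the log2 scale. Both passed the filter through YAP5SA libraries alone. All 3 of these miRNAs had more counts in YAP5SA replicate 2 than in the other libraries. They were chosen for likeness to miR-4516 in the same libraries, so this is no separate result.

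A wider list of 27 other entries known or suspected to come from structural RNA had 18 in the table. Of these, 4 were tested, and 1 was called higher and 0 lower by edgeR, beside 11.8% higher and 3.49% lower over all 602 tested. The one called was miR-4461, listed as suspected mitochondrial RNA, with 27 and 11 counts in YAP5SA libraries, against 0 and 2 in vector libraries, a pooled ratio of 17.7 (4.57 to 151; adjusted p = 0.038, edgeR). It too passed the filter through YAP5SA libraries alone, and with no filter edgeR gave it an adjusted p of 0.040. The tRNA entry miR-3676-5p had 11 and 25 counts in YAP5SA libraries, against 45 and 24 in vector libraries, or -1.03 ± 0.52 on the log2 scale (SE), with an adjusted p of 0.23 from edgeR. The snoRNA entry miR-3651 had 4 and 34 counts in YAP5SA libraries, against 30 and 22 in vector libraries, or -0.58 ± 0.78 on that scale (SE), with an adjusted p of 0.67 from edgeR. The rRNA spacer entry miR-6724-5p had 14 and 36 counts in YAP5SA libraries, against 17 and 5 in vector libraries, or 1.09 ± 0.67 on that scale (SE), with an adjusted p of 0.30 from edgeR. Both YAP5SA libraries lay above both vector libraries for 11 of the 18 (34.4% of all 2034 miRNAs with a count) and below them for 1 (11.8%). These placings were taken under TMM alone, and some rest on few counts. For example, miR-664b-3p had 2 and 4 in YAP5SA libraries against 2 and 0 in vector libraries, and miR-1973 had 2 and 1 against 0 and 0. Over the 18, the median log2 fold change with no filter was 0.49, against 0.28 over all 2034 miRNAs with a count.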

How the data were processed

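The deposited table held raw read counts per mature miRNA with no normalization, log2 normalized read counts, fold changes and p-values, per the file headers. How the authors normalized the log2 values, and which test gave the authors' p-values, was not given in the sources used here. All values in the authors' deposited table come without replicate errors. The authors' deposited fold is YAP5SA over vector. Libraries were made from total RNA (easy-BLUE) with an NEB small RNA kit, per the labels' protocols. FastQC and hg19 are named in the submitters' processing notes. Neither aligner nor counter was given in those sources. The 3 lines with no miRNA name were left out.

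Groups came from sample titles. The counts were tested with edgeR 4.0.16 (R 4.3.3, quasi-likelihood, TMM, default filter, which asks for about 51.6 CPM in 2 libraries, Benjamini-Hochberg over all tested, threshold 0.05). The filter kept 602 miRNAs with 96.9% of counts. Entries below it are given from a fit with no filter. TMM factors were computed again in that fit, over all miRNAs with a count. CPM and pooled ratios use the factors of the filtered fit. A change with no filter therefore mixes the filter with the scaling. SE is the size of the log2 fold change over the square root of F. Binomial intervals are exact at 95% and cover counting error only. Alternatives were other scalings (library totals, upper quartile, TMM on miRNAs of at least 1000 CPM), no filter, a replicate block, DESeq2 1.42.0, limma 3.58.1 on the authors' values and each library left out. Of these steps, only the main edgeR fit was run on simulated data, drawn with the dispersion common to all miRNAs. Its outcome is not given here.

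All 10 entries were named, with the list of others. Members and lists were chosen with earlier results of these data known. Sequences come from the deposited table and GENCODE 29, positions from GENCODE 29 and RefSeq on GRCh38. Figures used matplotlib 3.10.9.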

Additional observations from a re-analysis of the deposited data

How the results depend on the processing

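In place of 92 calls over all miRNAs, edgeR called 159 with library totals, 167 with scaling from abundant miRNAs and 48 with no filter, DESeq2 41 (149 at an unadjusted p under 0.05) and limma on the authors' values 0 (228). Leaving out 1 library gave 1 to 283 calls, in fits where the lone sample is assumed to vary like the other group. Among the entries, in place of 3 calls, DESeq2 called 0 (2 unadjusted), limma 0 (2 unadjusted), and edgeR with 1 library left out 0 to 2 (at 0, 3 unadjusted); the other scalings, no filter and the block gave 2 to 4. With the replicate block edgeR called 136 miRNAs and 3 entries. The replicate numbers do not pair the samples by any label, and deviations of same-numbered libraries had a correlation of 0.016 over 602 miRNAs.

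Under library totals and under abundant-miRNA scaling, the log2 ratio of class sums was 3.49 and 3.74 for U2 (reported 2.99), 0.99 and 1.20 for snoRNA (0.42), 0.19 and 0.41 for tRNA (-0.30), and 0.43 and 0.64 for rRNA without miR-4516 (-0.11), a set chosen after seeing the data. The sign of the log2 fold change turned for miR-1291 (0.14) with upper quartile scaling (-0.14) and limma (-0.10), and ran from -0.20 to 0.51 with 1 library left out. For miR-664a-3p (-0.23) it turned with library totals (0.70) and abundant miRNAs (0.98), and ran from -0.46 to 0.065 with 1 library left out. For miR-3648 (0.41) it turned with no filter (-0.032), DESeq2 (-0.0082) and limma (-0.22), and ran from -0.21 to 0.37 with 1 library left out. For miR-3687 (-1.10) it turned with abundant miRNAs (0.040). The other 6 kept their direction under every alternative that gave a value; the causes were not tested. Of 60 replicate differences recomputed under other scalings, 17 moved. Low counts limit all of these values, since 1 count is worth 5.23 to 6.57 CPM.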

Other observations

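Of the 15 miRNAs whose whole mature sequence lies in a GENCODE structural RNA transcript, 12 are not among the 10 entries. They include miR-1248, from the H/ACA snoRNA gene SNORA81, which had 13 and 9 counts in YAP5SA libraries, against 6 and 4 in vector libraries. They also include both arms of miR-664b, from SNORA36A. The 5p arm had 9 and 8 counts in YAP5SA libraries, against 4 and 1 in vector libraries, and the 3p arm 2 and 4 against 2 and 0. miR-4485, which lies in the mitochondrial large rRNA gene MT-RNR2, had 7 and 12 counts in YAP5SA libraries, against 6 and 6 in vector libraries. None of these had enough counts for the default filter. The 12 also include miR-3651, which was tested and not called, and miR-664a-5p. The latter had 5 and 4 counts in YAP5SA libraries, against 4 and 3 in vector libraries. For both, the groups overlapped in CPM. miR-6087, listed with the rRNA spacer entries, had 4 and 45 counts in YAP5SA libraries, against 3 and 2 in vector libraries, so YAP5SA replicate 2 stood apart there as it did for miR-4516.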
